A study of Mus musculus with 16 samples.

Results

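The 10 genes described here carry out peptide presentation on MHC class I. They are H2-K1 and H2-D1, which encode classical class I heavy chains, and B2m, which encodes the light chain. Tap1 and Tap2 encode the peptide transporter, Tapbp encodes tapasin and Calr encodes calreticulin. Psmb8, Psmb9 and Psmb10 encode the catalytic subunits of the immunoproteasome. The genes were taken by name: every probe of the scanner files whose gene symbol is a member was used, which gave 12 of 39429 probes and 10 of the 21980 genes or unnamed features tested. All 10 genes passed the filter on dim probes.

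RNA was measured on 16 single-channel Agilent mouse arrays, 4 for each of 4 cell populations sorted from untreated C57BL/6 mice. CCR2+ Mac were heart macrophages positive for CD45, MerTK and CD64, negative for Ly6c, and high for both CCR2 and MHCII. MHC-IIHi Mac were heart macrophages of the same CD45, MerTK, CD64 and Ly6c gate that lacked CCR2, were high for MHCII and low for CD11c. MHC-IIlo Mac came from that gate too, lacked CCR2 and CD11c, and were low for MHCII. Ly6cHi Mono were blood monocytes high for Ly6c. No age, sex or number of mice per sample is given in the labels, so p-values measure the spread between these arrays, which may be technical. Each array started from 1 ng of RNA. The replicate number coincided with the slide, each slide held 1 array of every group, and each group always took the same place on its slide, so the effects of place and group cannot be told apart.

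Class I molecules display short peptides from the cytosol to CD8 T cells and also set the threshold for natural killer cells. The proteasome cuts proteins into peptides, and in its immunoproteasome form Psmb8, Psmb9 and Psmb10 take the places of Psmb5, Psmb6 and Psmb7. TAP pumps the peptides into the endoplasmic reticulum, where tapasin, calreticulin and the disulfide isomerase Pdia3 hold the empty heavy chain and B2m until a peptide is bound. Interferon-gamma raises most of these genes, in part through the transactivator NLRC5, whereas calreticulin is also a general calcium-binding chaperone. Macrophages carry class I at all times and use it to cross-present material they have engulfed.

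Array quality and the gate can be given in brief. Between 61.7% and 68.3% of spots were well above background on the CCR2+ Mac arrays and 58.1% to 69.3% on the MHC-IIHi Mac arrays. The shares were 58.5% to 69.3% on the MHC-IIlo Mac arrays and 52.8% to 60.1% on the Ly6cHi Mono arrays, and no spot was saturated. In every group slides 1 and 3 had lower shares than slides 2 and 4, in CCR2+ Mac 61.7% and 62.4% against 68.3% and 68.2%. Of 9 gate genes, Mertk was well above background on all macrophage arrays and on 0 of the 4 monocyte arrays. On the log2 scale Ccr2 averaged 0.56 in CCR2+ Mac, -3.31 in MHC-IIHi Mac, -3.91 in MHC-IIlo Mac and 1.06 in Ly6cHi Mono. It was still detected on 3 of 4 MHC-IIHi Mac arrays and 1 of 4 MHC-IIlo Mac arrays. In the same order, Itgax, which encodes CD11c, averaged 1.46, -0.40, -2.37 and -0.52, detected on all arrays. Ly6c1 averaged 2.59, 1.27, 1.39 and 5.71, and Fcgr1, which encodes CD64, 3.08, 3.01, 2.89 and 2.76. Summed signals of cardiomyocyte and fibroblast markers moved with the contrast between heart and blood, whereas those of endothelial markers overlapped. Sums are of linear signal relative to the 75th percentile of each array. For 12 cardiomyocyte genes they were 20.3 to 31.5 in CCR2+ Mac, 25.9 to 39.2 in MHC-IIHi Mac and 23.1 to 35.4 in MHC-IIlo Mac. In Ly6cHi Mono they were 2.66 to 3.37. All but Ryr2 of that list were detected on some array of every macrophage group, whereas Tnnt2, Actc1, Mb, Pln, Ttn and Ryr2 stayed near background on all 4 monocyte arrays. Myh6, Tnni3, Myl2, Myl3 and Nppa were detected on all 4 monocyte arrays as well, with a lower mean than in each macrophage group. Myl7 went the other way, with log2 means of -4.50, -4.15 and -3.43 in the macrophage groups against -3.12 in monocytes. The summed signal of 10 fibroblast genes was 3.92 to 10.6, 4.86 to 9.71 and 7.56 to 10.5 in the same macrophage groups, against 1.34 to 1.54 in monocytes. In that list Dcn averaged 1.24, 2.06 and 2.32 against -5.09 on the log2 scale, whereas Pdgfra and Dpt stayed near background in every group. The summed signal of 10 endothelial genes was 8.39 to 11.9, 5.38 to 9.31 and 6.35 to 8.82, against 8.44 to 9.49 in monocytes. Among these, Ly6a averaged 0.30, -0.87 and -0.57 against 2.09, and Emcn -0.56, -0.98 and -0.82 against -1.85. The summed signal of 10 neutrophil genes was 0.733 to 2.00, 1.08 to 1.57 and 1.10 to 1.81, against 4.55 to 5.73 in monocytes. Of single genes on the log2 scale, Mmp8 averaged -3.57, -4.25 and -4.66 against 1.74, while Ly6g averaged -1.65, -2.83 and -3.04 against -2.87 and Mmp9 -5.09, -1.85 and -2.03 against -5.16. Their part in the differences from monocytes described below was not tested, and in sorted bulk samples fewer cells of a type and less RNA per cell cannot be told apart.

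The sequences upstream of the genes place most of the members in 1 region. RefSeq's promoter table for GRCm38.p6 held 9 of the 10 members, all but Tap2, and put Tapbp, H2-K1, Psmb9, Tap1, Psmb8 and H2-D1 on chromosome 17, B2m on chromosome 2, and Psmb10 and Calr on chromosome 8. The 5 windows below, of 250 bases each ending just before the gene's first base, are examples that hold motif matches. Tap1 and Psmb9 share most of theirs. The windows of Psmb8 and Psmb10, which are among the members called in the tests below, are not shown. Capitals mark motif matches, and all are written 5′ to 3′ along the gene's strand.
H2-K1 (chr17:34000348-34000597, minus strand): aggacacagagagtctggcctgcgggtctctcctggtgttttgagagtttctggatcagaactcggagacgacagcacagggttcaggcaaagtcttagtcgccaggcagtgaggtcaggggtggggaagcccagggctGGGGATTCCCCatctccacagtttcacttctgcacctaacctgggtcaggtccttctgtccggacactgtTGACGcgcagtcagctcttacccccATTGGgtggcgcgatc
H2-D1 (chr17:35262844-35263093, plus strand): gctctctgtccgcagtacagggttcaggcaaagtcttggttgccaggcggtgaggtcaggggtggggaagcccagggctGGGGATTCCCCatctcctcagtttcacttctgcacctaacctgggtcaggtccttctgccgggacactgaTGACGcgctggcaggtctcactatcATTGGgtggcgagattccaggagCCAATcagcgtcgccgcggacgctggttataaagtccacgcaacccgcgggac
B2m (chr2:122147437-122147686, plus strand): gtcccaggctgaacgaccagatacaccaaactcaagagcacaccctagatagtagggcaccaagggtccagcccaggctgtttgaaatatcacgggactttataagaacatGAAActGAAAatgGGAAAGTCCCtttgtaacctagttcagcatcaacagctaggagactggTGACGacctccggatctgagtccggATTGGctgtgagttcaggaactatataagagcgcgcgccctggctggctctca
Tap1 (chr17:34187306-34187555, plus strand): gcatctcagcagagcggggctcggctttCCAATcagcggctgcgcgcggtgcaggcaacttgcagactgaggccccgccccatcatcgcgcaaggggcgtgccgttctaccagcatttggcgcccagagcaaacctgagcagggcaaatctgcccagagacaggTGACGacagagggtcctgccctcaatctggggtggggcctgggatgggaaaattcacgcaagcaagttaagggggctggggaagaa
Calr (chr8:84846932-84847181, minus strand): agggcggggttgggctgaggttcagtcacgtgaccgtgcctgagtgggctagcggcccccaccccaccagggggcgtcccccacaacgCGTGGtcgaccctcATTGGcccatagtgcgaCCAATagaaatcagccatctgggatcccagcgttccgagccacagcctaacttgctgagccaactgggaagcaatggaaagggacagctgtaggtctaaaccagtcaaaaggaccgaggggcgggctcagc

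The H2-K1 and H2-D1 windows both held the same 11-letter kappa B site, the longest run of capitals above, 111 and 171 bases before the start. It occurred in 10 of 32851 mouse promoter windows of this length, or 0.0304%, the members' own windows included. A second H2-K1 window, for another start and not shown, held it 125 bases before that start. A match on either strand was counted throughout. The B2m window held the core of the interferon-stimulated response element, a pair of GAAA blocks 2 bases apart, found in 2.98% of windows. Next to it, on the opposite strand, stood another form of the kappa B site, found in 0.14% of windows. The core TGACG of the cyclic AMP response element, found in 17.8% of windows, was present upstream of H2-K1, H2-D1, B2m, Tap1 and Psmb9, and the CCAAT box, found in 33.8%, upstream of those 5 genes, Tapbp and Calr. Calr held the endoplasmic reticulum stress element, CCAAT and CCACG 9 bases apart, on the opposite strand, found in 0.113% of windows, and 1 of its 2 CCAAT boxes is part of that match. In addition, 2 more forms of the kappa B site, found in 0.0335% and 0.365% of windows, were searched too and were in none of the members' windows. The Psmb8 window held a gamma-activated site, TTCNNNGAA with N any base, found in 7.02% of windows. The Psmb10 window held no match to any motif searched. Tap1 and Psmb9 start 226 bases apart on opposite strands, and their windows of 250 bases share 225 bases at chr17:34187331-34187555. The TGACG and CCAAT matches counted above for both genes lie in that stretch and are the same sites. A match is a description of letters, and no binding was measured here.

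The arrays read each gene through 60-base probes. Probes of 4 members are shown so that what was hybridised can be seen, in lower case because no part of them is singled out.
H2-K1, brighter probe: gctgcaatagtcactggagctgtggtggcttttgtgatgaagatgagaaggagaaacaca
Tap1: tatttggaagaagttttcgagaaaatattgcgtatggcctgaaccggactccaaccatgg
Psmb8: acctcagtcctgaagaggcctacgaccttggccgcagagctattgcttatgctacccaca
Psmb9: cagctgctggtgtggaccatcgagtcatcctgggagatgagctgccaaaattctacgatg
H2-K1 and Psmb9 had 2 probes each and the other members 1. Of the 12 probes, 11 were well above background on all 16 arrays. The second Psmb9 probe was well above background on 1 array and was not used. No H2-K1 or H2-D1 probe shared 80% of letters over 40 bases or more with another H2 class I heavy chain probe, aligned without gaps. Pairs among the other heavy chain genes were not compared, and matches of the probes to transcripts of related genes were not checked.

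Values are log2 signals relative to the 75th percentile of the array, so a difference of 1 is a doubling, and they are set side by side for 1 gene at a time, since signals of different probes cannot be ranked. A gene was called when its adjusted p was below 0.05 in limma's moderated test with Benjamini-Hochberg adjustment over all 21980 features. The plot of values by array shows all 10 genes.

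**Figure D1:**
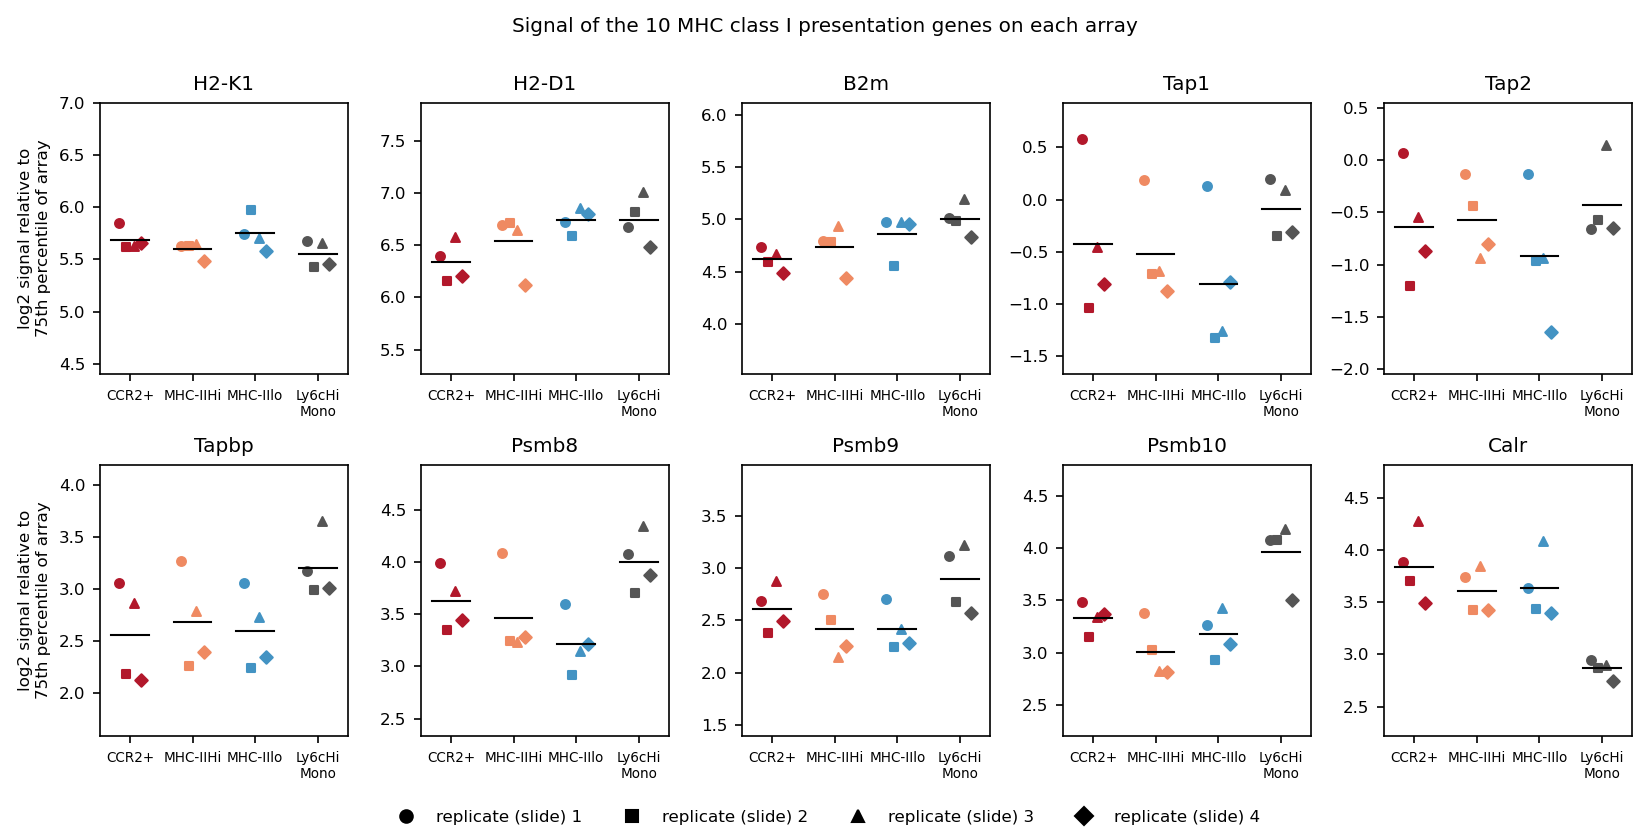
Log2 signal relative to the 75th percentile of the array (vertical axis, the same span of 2.6 in every panel) for each of the 10 genes on 16 arrays. Points are arrays, shapes are slides and the bar is the mean of 4 arrays; Calr lies between 3.39 and 4.28 on all macrophage arrays and between 2.75 and 2.95 on monocyte arrays, whereas most other genes overlap between groups.

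Among the 3 heart macrophage populations no class I gene passed the test. None of the 10 was called between CCR2+ Mac and MHC-IIHi Mac, between CCR2+ Mac and MHC-IIlo Mac, or between MHC-IIHi Mac and MHC-IIlo Mac by limma, against 1.25%, 2.78% and 0.0682% of all features. The groups did not overlap for 0, 1 and 0 members, against 7.79%, 8.28% and 2.32% of all features. At an unadjusted p under 0.05 the counts were 0, 1 and 0 of 10, against 2178, 2562 and 859 of 21980 features. With the slide as a block they were again 0 called of 10 in each, against 2.51%, 5.71% and 0.35% of all features. The median member difference was 0.09 for CCR2+ Mac minus MHC-IIHi Mac, 0.18 for CCR2+ Mac minus MHC-IIlo Mac and -0.01 for MHC-IIHi Mac minus MHC-IIlo Mac, beside -0.02, -0.04 and -0.01 over all features. The 95% confidence interval of the difference lay within a doubling either way for 10, 9 and 8 of the 10 genes. The exceptions were Tap1 for CCR2+ Mac minus MHC-IIlo Mac, with an interval of -0.42 to 1.19, and Tap1 and Tap2 for MHC-IIHi Mac minus MHC-IIlo Mac, with upper bounds of 1.09 and 1.05. These intervals come from the fit without the slide as a block. The SE of these Tap1 differences was 0.38 in that fit and 0.20 with the block.

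The heavy chains and their light chain come first. H2-K1 had signals of 5.85, 5.62, 5.63 and 5.66 in CCR2+ Mac, 5.63, 5.63, 5.65 and 5.48 in MHC-IIHi Mac, 5.74, 5.97, 5.71 and 5.58 in MHC-IIlo Mac, and 5.68, 5.43, 5.66 and 5.45 in Ly6cHi Mono, for replicates 1 to 4 in that order here and below. The 16 values lay between 5.43 and 5.97, and all 4 groups overlapped. The difference from monocytes was 0.14 (95% interval -0.18 to 0.45) in CCR2+ Mac, 0.04 (-0.28 to 0.36) in MHC-IIHi Mac and 0.20 (-0.12 to 0.52) in MHC-IIlo Mac, and none was called by limma (adjusted p = 0.599, 0.910 and 0.433). After quantile normalization, H2-K1 was called higher in CCR2+ Mac (0.65, adjusted p = 0.00804) and in MHC-IIlo Mac (0.51, adjusted p = 0.0313) than in monocytes, and with the slide as a block added also in MHC-IIHi Mac (0.39, adjusted p = 0.0292). The dimmer H2-K1 probe averaged 3.00 ± 0.11 in CCR2+ Mac, 2.58 ± 0.41 in MHC-IIHi Mac, 2.85 ± 0.11 in MHC-IIlo Mac and 2.47 ± 0.27 in Ly6cHi Mono (SD, n = 4 each). Its largest difference, 0.54 for CCR2+ Mac minus Ly6cHi Mono, was not called (limma, adjusted p = 0.0796). The H2-K1 probes correlated with r = 0.594 over the 16 arrays.

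H2-D1 was the member nearest to a difference among the macrophages. Its signals were 6.39, 6.16, 6.58 and 6.21 in CCR2+ Mac, 6.69, 6.72, 6.64 and 6.12 in MHC-IIHi Mac, 6.72, 6.59, 6.85 and 6.80 in MHC-IIlo Mac, and 6.67, 6.82, 7.01 and 6.48 in Ly6cHi Mono. Every CCR2+ Mac array lay below every MHC-IIlo Mac array, and no other member separated in a comparison between macrophages. The difference of -0.41 (95% interval -0.80 to -0.01, lower on 4 of 4 slides) was not called by limma (adjusted p = 0.406, or 0.128 with the slide as a block), and under quantile normalization it was -0.13. Against monocytes the difference was -0.41 in CCR2+ Mac, -0.20 in MHC-IIHi Mac and -0.0045 in MHC-IIlo Mac, none called, and all 3 were above 0 under quantile normalization (0.05, 0.05 and 0.18). With the slide as a block the CCR2+ Mac value was called lower (adjusted p = 0.0414).

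B2m, which pairs with every class I heavy chain, had its group means in the same order as H2-D1. It had signals of 4.74, 4.59, 4.67 and 4.49 in CCR2+ Mac, 4.80, 4.79, 4.94 and 4.43 in MHC-IIHi Mac, 4.98, 4.55, 4.97 and 4.96 in MHC-IIlo Mac, and 5.02, 4.98, 5.20 and 4.83 in Ly6cHi Mono. The CCR2+ Mac arrays all lay below the monocyte arrays, while the other macrophage groups overlapped them. The difference from monocytes was -0.39 (adjusted p = 0.123, and 0.0347 with the slide as a block) in CCR2+ Mac, -0.27 (adjusted p = 0.328) in MHC-IIHi Mac and -0.14 (adjusted p = 0.650) in MHC-IIlo Mac by limma, but 0.12, 0.14 and 0.24 under quantile normalization. The median of bright genes shifted in the same way. It was taken over the 1096 genes, members left out, above the 95th percentile of mean signal. The median difference from monocytes was -0.52 in CCR2+ Mac, -0.31 in MHC-IIHi Mac and -0.29 in MHC-IIlo Mac on the main scale. Under quantile normalization these medians were -0.0026, 0.02 and 0.0060. H2-D1, H2-K1 and B2m lie above that percentile too, and H2-K1 differed by 0.14, 0.04 and 0.20 on the main scale. The directions of H2-D1 and B2m against monocytes depended on the scaling, and a link to the shift of bright genes was not tested. The plot of differences under both scalings sets this out.

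**Figure D2:**
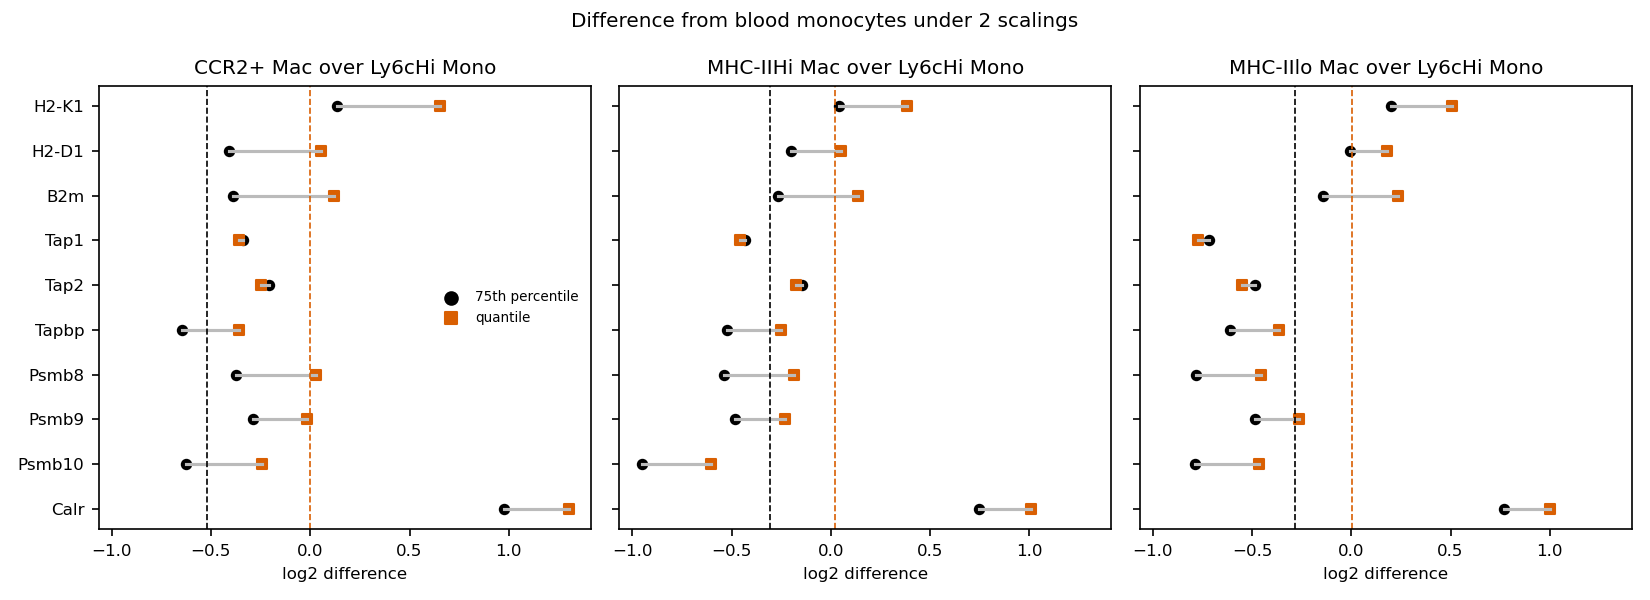
Log2 difference from Ly6cHi Mono (horizontal axis) of each of the 10 genes in CCR2+ Mac, MHC-IIHi Mac and MHC-IIlo Mac. Values are shown with scaling to the 75th percentile of the array (black circles) and with quantile normalization (orange squares). Dashed lines are the medians of the 1096 brightest genes, members left out, under each scaling. H2-D1 and B2m cross 0 in all 3 panels, Psmb8 crosses it in CCR2+ Mac, and Calr stays above 0.74 in every panel.

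On the 75th-percentile scale Calr was the only member called higher in the heart macrophages than in blood monocytes, and it was called in all 3 populations. Its signals were 3.89, 3.70, 4.28 and 3.49 in CCR2+ Mac, 3.74, 3.43, 3.85 and 3.42 in MHC-IIHi Mac, 3.64, 3.43, 4.09 and 3.39 in MHC-IIlo Mac, and 2.95, 2.87, 2.90 and 2.75 in Ly6cHi Mono. All 12 macrophage arrays lay above all 4 monocyte arrays. The difference was 0.97 ± 0.21 (SE), or 1.96-fold, in CCR2+ Mac (limma, adjusted p = 0.00316), 0.74 ± 0.21, or 1.68-fold, in MHC-IIHi Mac (adjusted p = 0.0171), and 0.77 ± 0.21, or 1.71-fold, in MHC-IIlo Mac (adjusted p = 0.0136), each with the same sign on 4 of 4 slides. The 3 comparisons share the monocyte arrays. The call in CCR2+ Mac held without any array in turn. Without replicate 3 of its own group the adjusted p was 0.0524 in MHC-IIHi Mac and 0.0505 in MHC-IIlo Mac, and with median scaling it was 0.130 and 0.102 in those groups.

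Against monocytes, then, limma called 1 of the 10 members higher and 1 lower in CCR2+ Mac, where 9.97% of all features were higher and 11.7% lower. It called 1 higher and 1 lower in MHC-IIHi Mac, beside 10.1% and 11.4%, and 1 higher and 2 lower in MHC-IIlo Mac, beside 10.1% and 11.2%. Called in either direction were 21.7%, 21.4% and 21.3% of all features, so the members' 2, 2 and 3 of 10 were close to the background. Under quantile normalization the members counted 2 higher and 0 lower in CCR2+ Mac, 1 and 1 in MHC-IIHi Mac, and 2 and 0 in MHC-IIlo Mac, beside 2506 and 2085, 2378 and 2175, and 2384 and 2294 of 21980 features. The median member difference was -0.35, -0.35 and -0.48, beside -0.09, -0.05 and -0.05 over all features. With the slide as a block, 1 member was higher in each population and 4, 4 and 5 were lower, beside 14.3%, 13.6% and 14.1% of all features higher and 19.5%, 18.2% and 18.1% lower. Either way, 5, 5 and 6 of 10 members were then called, beside 33.7%, 31.8% and 32.2% of all features. The groups did not overlap for 3, 2 and 3 members, beside 24.9%, 22.6% and 22.8% of all features.

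**Figure D3:**
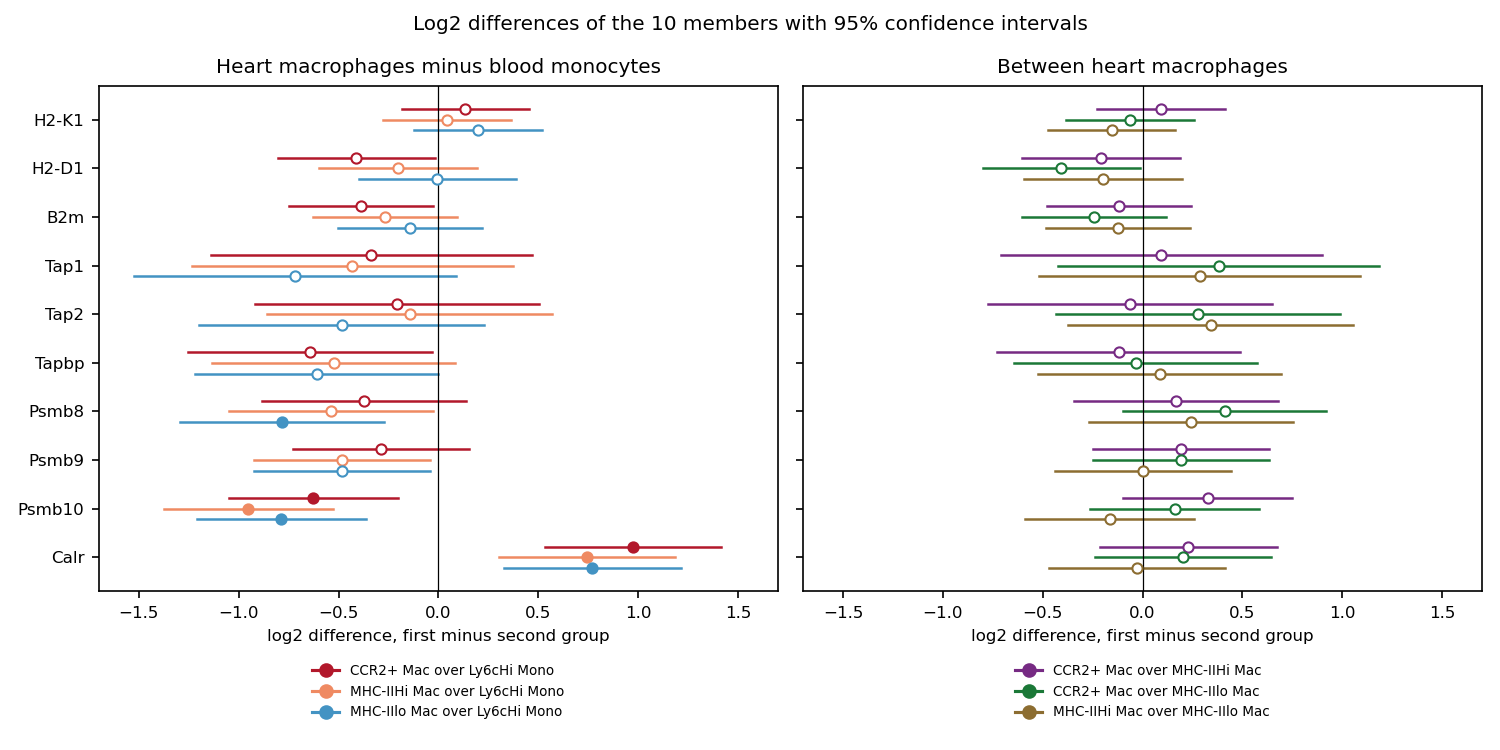
Log2 difference (horizontal axis) with its 95% confidence interval for each of the 10 genes in the 3 comparisons with monocytes (left) and the 3 comparisons between macrophages (right). The fit did not use the slide as a block. Filled points were called at an adjusted p under 0.05: Calr and Psmb10 in all 3 comparisons with monocytes and Psmb8 in MHC-IIlo Mac, and no gene between macrophages.

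Of the immunoproteasome subunits, Psmb10 was called lower than in monocytes in all 3 macrophage populations, Psmb8 in MHC-IIlo Mac and Psmb9 in none. Psmb10, which takes the place of the trypsin-like subunit Psmb7, had signals of 3.49, 3.15, 3.34 and 3.37 in CCR2+ Mac, 3.38, 3.03, 2.82 and 2.81 in MHC-IIHi Mac, 3.27, 2.93, 3.43 and 3.09 in MHC-IIlo Mac, and 4.08, 4.08, 4.19 and 3.50 in Ly6cHi Mono. The monocyte arrays all lay above the macrophage arrays, with replicate 4 the lowest of them and just above the highest macrophage array. The difference was -0.63 ± 0.20 (SE) in CCR2+ Mac (limma, adjusted p = 0.0346), -0.95 ± 0.20 in MHC-IIHi Mac (adjusted p = 0.00249) and -0.79 ± 0.20 in MHC-IIlo Mac (adjusted p = 0.0091). Leaving out each array in turn kept the calls in MHC-IIHi Mac and MHC-IIlo Mac 8 of 8 times, but kept the call in CCR2+ Mac 2 of 8 times. That call was lost without CCR2+ Mac replicate 2, 3 or 4 or Ly6cHi Mono replicate 1, 2 or 3, with adjusted p between 0.0650 and 0.0949. Quantile normalization brought the difference to -0.24 in CCR2+ Mac (adjusted p = 0.353), -0.60 in MHC-IIHi Mac (adjusted p = 0.0182) and -0.47 in MHC-IIlo Mac (adjusted p = 0.0622). With median scaling the CCR2+ Mac call was lost too (-0.68, adjusted p = 0.0951).

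Psmb8, which takes the place of the chymotrypsin-like subunit Psmb5, had signals of 3.99, 3.35, 3.72 and 3.45 in CCR2+ Mac, 4.08, 3.24, 3.24 and 3.28 in MHC-IIHi Mac, 3.59, 2.92, 3.14 and 3.22 in MHC-IIlo Mac, and 4.08, 3.70, 4.35 and 3.88 in Ly6cHi Mono. Only the MHC-IIlo Mac arrays lay wholly below the monocyte arrays. The difference was -0.37 (adjusted p = 0.313) in CCR2+ Mac, -0.54 (adjusted p = 0.137) in MHC-IIHi Mac and -0.78 (adjusted p = 0.0281, or 1.72-fold lower) in MHC-IIlo Mac by limma. The MHC-IIlo Mac call was kept 3 of 8 times when an array was left out. It was lost without MHC-IIlo Mac replicate 2, 3 or 4 or Ly6cHi Mono replicate 1 or 3, with adjusted p of 0.0584 to 0.0893, and also with quantile normalization (-0.46, adjusted p = 0.159), with median scaling (-0.86, adjusted p = 0.0886) and with the 2 groups alone (adjusted p = 0.0516). In CCR2+ Mac the sign turned to 0.03 under quantile normalization. In MHC-IIHi Mac Psmb8 was called lower without MHC-IIHi Mac replicate 1 (-0.75, adjusted p = 0.0276) and with the slide as a block (adjusted p = 0.0181).

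Psmb9, which takes the place of Psmb6, averaged 2.61 ± 0.22 in CCR2+ Mac, 2.42 ± 0.27 in MHC-IIHi Mac and 2.41 ± 0.21 in MHC-IIlo Mac, against 2.90 ± 0.32 in Ly6cHi Mono (SD, n = 4 each). Every macrophage group overlapped the monocytes. The differences of -0.29, -0.48 and -0.48 were not called by limma (adjusted p = 0.373, 0.123 and 0.120), and with the slide as a block the MHC-IIHi Mac and MHC-IIlo Mac differences were called (adjusted p = 0.0313 and 0.0308). The constitutive partners, looked at because of that exchange and after their values were seen, were called higher in no macrophage group. Psmb5 fell by 1.04, 0.88 and 0.87 on the log2 scale in CCR2+ Mac, MHC-IIHi Mac and MHC-IIlo Mac (limma, adjusted p = 0.00178, 0.00551 and 0.00586). Psmb6 differed by -0.57, -0.52 and -0.44, of which only the first was called (adjusted p = 0.0450, 0.0708 and 0.127), and Psmb7 by -0.67, -0.16 and -0.36, none called (adjusted p = 0.0963, 0.782 and 0.436).

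The transporter and tapasin varied more between slides than between groups. Tap1 had signals of 0.58, -1.03, -0.46 and -0.81 in CCR2+ Mac, 0.18, -0.72, -0.69 and -0.88 in MHC-IIHi Mac, 0.13, -1.33, -1.26 and -0.79 in MHC-IIlo Mac, and 0.20, -0.35, 0.10 and -0.31 in Ly6cHi Mono. Replicate 1 was the highest array of every group. The slide means of Tap1 spanned 1.13, against 0.72 for its group means. Its difference from monocytes was -0.34 in CCR2+ Mac, -0.43 in MHC-IIHi Mac and -0.72 in MHC-IIlo Mac, none called by limma (adjusted p = 0.604, 0.522 and 0.220), and the last was called with the slide as a block (adjusted p = 0.0171).

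Tap2, the partner chain of Tap1 in the transporter, averaged -0.64 ± 0.54 in CCR2+ Mac, -0.58 ± 0.37 in MHC-IIHi Mac, -0.92 ± 0.62 in MHC-IIlo Mac and -0.43 ± 0.39 in Ly6cHi Mono (SD, n = 4 each). The groups overlapped, with slide means spanning 0.78 and group means 0.48, and no comparison was called. The interval for MHC-IIlo Mac minus Ly6cHi Mono ran from -1.20 to 0.23.

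Tapbp, whose product tethers the heavy chain to the transporter, had signals of 3.06, 2.19, 2.86 and 2.13 in CCR2+ Mac, 3.27, 2.26, 2.79 and 2.39 in MHC-IIHi Mac, 3.05, 2.24, 2.73 and 2.35 in MHC-IIlo Mac, and 3.17, 2.99, 3.65 and 3.01 in Ly6cHi Mono. Slides 1 and 3 were high in all 3 macrophage groups and slides 2 and 4 low. Slides 1 and 3 also had fewer spots well above background, and a link was not tested. The difference from monocytes was -0.64, -0.52 and -0.61, not called by limma without the slide (adjusted p = 0.129, 0.242 and 0.162) and called in all 3 populations with the slide as a block (adjusted p = 0.00705, 0.0215 and 0.00966). Under quantile normalization the differences were -0.36, -0.25 and -0.37.

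**Figure D4:**
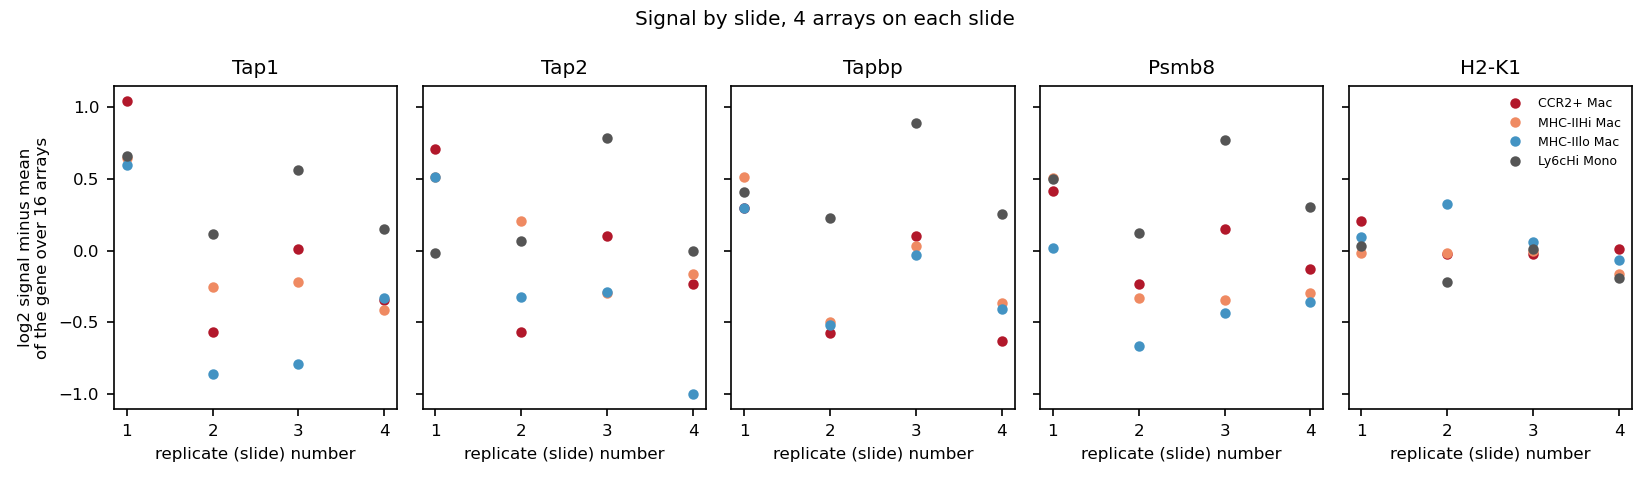
Log2 signal of Tap1, Tap2, Tapbp, Psmb8 and H2-K1 minus the gene's mean over 16 arrays (vertical axis) by slide (horizontal axis), with 1 point for each of the 4 groups on a slide. For Tap1 all groups are high on slide 1, for Tapbp the macrophage groups are high on slides 1 and 3, and H2-K1 varies little.

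The members moved together in blocks within the groups. Over the 16 arrays, after subtracting each group's mean, Tap1 and Psmb8 correlated with r = 0.884, Tapbp and Psmb8 with r = 0.885, Psmb8 and Psmb9 with r = 0.817, and H2-D1 and B2m with r = 0.806. For H2-K1 the highest such value was 0.488, with Tap2. These points share slides, which differ in the share of spots well above background, and no p is given. The part of the slides in these correlations was not tested. Of 11573 other genes that were well above background on all arrays, the most like H2-K1 in signal over the 16 arrays was H2-T23 (r = 0.783), a non-classical class I heavy chain. The most like Tap1 was H2-T10 (r = 0.941), another class I gene. Calr was matched by Dnaja1 (r = 0.963), a co-chaperone of Hsp70, and H2-D1 by B2m (r = 0.863). The others were matched by genes outside the pathway, B2m by Gnai2 (r = 0.932), Tap2 by Cpsf7 (r = 0.918), Tapbp by Hnrnpf (r = 0.957), Psmb8 by Abhd1 (r = 0.949), Psmb9 by Gm20056 (r = 0.924) and Psmb10 by Slc25a5 (r = 0.957).

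Other genes of the pathway were counted in 4 lists, against the same background shares as above. Of 19 other proteasome subunits and activators, 0 were called higher and 10 lower in CCR2+ Mac than in monocytes, 0 and 13 in MHC-IIHi Mac, and 0 and 9 in MHC-IIlo Mac. The list's median differences were -0.67, -0.84 and -0.76, beside -0.09, -0.05 and -0.05 over all features. Psma7, an outer-ring subunit, fell by 1.42, 1.31 and 1.18 on the log2 scale (limma, adjusted p = 0.000153, 0.000253 and 0.000602). Pomp, the assembly chaperone of the proteasome, fell by 0.97, 1.04 and 1.02 (adjusted p = 0.00177, 0.000904 and 0.00102). Psme1, a subunit of the interferon-induced activator of the proteasome, fell by 0.73, 0.90 and 1.11 (adjusted p = 0.0356, 0.0110 and 0.00239). Among further subunits with the largest differences, Psmb1 fell by 0.98 in CCR2+ Mac (adjusted p = 0.0109), Psma1 and Psma2 fell by 1.11 and 0.96 in MHC-IIHi Mac (adjusted p = 0.0254 and 0.00151), and Psmb3 fell by 0.94 in MHC-IIlo Mac (adjusted p = 0.00137). Under quantile normalization the list counted 0 higher and 7 lower, 0 and 11, and 0 and 7, with medians of -0.54, -0.57 and -0.50, so its direction was the same. With the slide as a block 13, 15 and 15 were lower. Between macrophages 0 of the 19 were called in either direction.

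**Figure D5:**
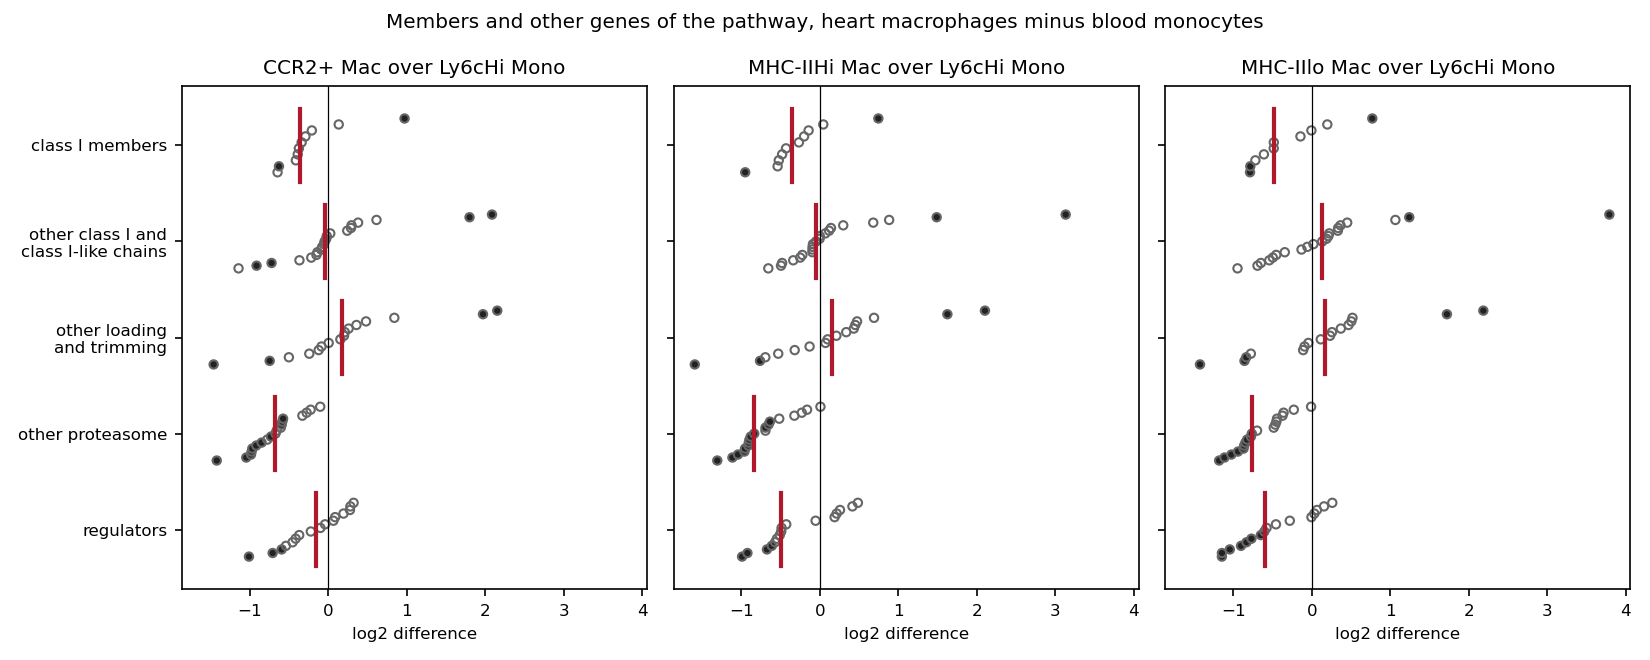
Log2 difference from Ly6cHi Mono (horizontal axis) of the 10 members and of the tested genes of 4 other lists of the pathway, in CCR2+ Mac, MHC-IIHi Mac and MHC-IIlo Mac. Each point is a gene, filled where it was called, and the red line is the list's median, which lies at -0.67, -0.84 and -0.76 for the other proteasome genes.

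The other class I and class I-like heavy chains behaved less uniformly. Of 21 tested, 2 were called higher and 2 lower in CCR2+ Mac than in monocytes, and 2 higher and 0 lower in MHC-IIHi Mac and in MHC-IIlo Mac, with median differences of -0.04, -0.05 and 0.13. Of all features, 9.97%, 10.1% and 10.1% were higher and 11.7%, 11.4% and 11.2% lower, so the share called higher was near the background. For the list, quantile normalization gave 4 higher and 1 lower, 3 and 0, and 4 and 0, with medians of 0.36, 0.23 and 0.32. With the slide as a block the counts were 3 and 3, 3 and 1, and 3 and 2. Fcgrt, the neonatal Fc receptor, which pairs with B2m but carries IgG and albumin in place of a peptide, was the higher one with the larger range. It averaged 0.69 ± 0.31 in CCR2+ Mac, 2.02 ± 0.27 in MHC-IIHi Mac and 2.68 ± 0.32 in MHC-IIlo Mac, against -1.11 ± 0.53 in Ly6cHi Mono (SD, n = 4 each), and no array of a group overlapped another group except between MHC-IIHi Mac and MHC-IIlo Mac. The differences from monocytes were 1.80, 3.13 and 3.79 (limma, adjusted p = 0.000176, 4.23e-07 and 4.91e-08). Fcgrt was lower in CCR2+ Mac than in MHC-IIHi Mac by a difference of -1.33 (adjusted p = 0.0217) and than in MHC-IIlo Mac by -1.99 (adjusted p = 0.00047), and no other heavy chain of the list was called between macrophages on this scale. For CCR2+ Mac against MHC-IIlo Mac, H2-Q5 (difference 0.85, adjusted p = 0.0682) was called with the slide as a block (adjusted p = 0.019), under quantile normalization (0.92, adjusted p = 0.031) and with another background correction, normexp (0.85, adjusted p = 0.0397). The first of these Fcgrt calls was lost with median scaling (adjusted p = 0.131). H2-Q5, a non-classical class I gene, was the other one higher than in monocytes, by 2.09, 1.49 and 1.24 (adjusted p = 9.87e-06, 0.000195 and 0.000893). H2-T24 and H2-Q4 were lower in CCR2+ Mac (-0.91 and -0.72, adjusted p = 0.00888 and 0.0431), of which H2-Q4 was not called under quantile normalization (-0.25). H2-Q6, H2-Q9, H2-T22 and H2-L are not analysed here.

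In peptide loading and trimming, 2 of 16 tested genes were called higher in each macrophage group than in monocytes and 2, 2 and 3 were called lower, or 4 in each and 1, 1 and 2 under quantile normalization. With the slide as a block 4 were higher in each and 3, 3 and 4 lower. On the main scale 9.97%, 10.1% and 10.1% of all features were higher and 11.7%, 11.4% and 11.2% lower. The list's share called higher on that scale was near the background. The genes of the list called higher on the main scale were Thop1, a cytosolic peptidase, and the leucine aminopeptidase Lap3. The measured differences of Thop1 were 2.15, 1.62 and 2.19 (limma, adjusted p = 0.0044, 0.0239 and 0.00351), but it was detected on 1 of 4 monocyte arrays, where its measured mean of -3.91 lay below the dimmest signal that counts as well above background. Lap3 was well above background on 0 of 4 monocyte arrays. It averaged -2.43, -2.30 and -2.68 in the macrophage groups, against a measured -4.41 in monocytes (limma on the measured values, adjusted p = 0.00286, 0.00159 and 0.00659). With the monocyte arrays set at that dimmest signal, which averaged -3.14, Lap3 was 1.63-fold, 1.79-fold and 1.37-fold higher on the main scale. These folds were not tested and do not hold under another background correction. With normexp neither gene was called in any of the 3 comparisons: the Thop1 differences were 0.67, 0.31 and 0.67, and the Lap3 differences 0.18, 0.33 and 0.08 (adjusted p = 0.707, 0.498 and 0.889). The subunits Sec61b and Sec61a1 of the translocation channel were lower, Sec61b by -1.46, -1.59 and -1.42 (adjusted p = 7.64e-05, 2.29e-05 and 7e-05) and Sec61a1 by -0.74, -0.76 and -0.83 (adjusted p = 0.0307, 0.0265 and 0.0159), with Sec61a1 not called under quantile normalization. Lnpep, an aminopeptidase of cross-presenting endosomes, fell by 0.86 in MHC-IIlo Mac (adjusted p = 0.0343). The chaperones that act beside calreticulin, chosen after their values were seen, differed by 0.36, 0.43 and 0.37 for Pdia3 and by 0.21, 0.21 and 0.11 for calnexin, Canx, none called without the slide as a block, with which Pdia3 was called higher in all 3 (adjusted p = 0.0408, 0.0182 and 0.0378).

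Among 16 regulators of class I genes, 0 were called higher than in monocytes, and 3, 4 and 7 were called lower in CCR2+ Mac, MHC-IIHi Mac and MHC-IIlo Mac. Beside them, 9.97%, 10.1% and 10.1% of all features were higher and 11.7%, 11.4% and 11.2% lower. The slide as a block gave 0 higher and 5, 7 and 9 lower, and quantile normalization 1 higher and 2 lower, 0 and 4, and 0 and 7. Ifngr1, the ligand-binding chain of the interferon-gamma receptor, differed by -1.01, -0.99 and -1.14 (limma, adjusted p = 0.00239, 0.00247 and 0.000753), and Jak2, the kinase bound to that receptor, by -0.71, -0.67 and -0.77 (adjusted p = 0.0191, 0.0238 and 0.0110). Nfkb1, a kappa B binding protein, differed by -0.54 in CCR2+ Mac, where it was not called, and fell by 0.92 in MHC-IIHi Mac and by 1.14 in MHC-IIlo Mac (adjusted p = 0.0548, 0.00215 and 0.000358). Irf8, a transcription factor of monocytes and macrophages, fell by 0.59 in CCR2+ Mac and by 1.04 in MHC-IIlo Mac (adjusted p = 0.0455 and 0.00118). Stat2 fell by 0.61 in MHC-IIHi Mac (adjusted p = 0.0406), and Irf2 fell by 0.90 in MHC-IIlo Mac (adjusted p = 0.0341).

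Nlrc5, the transactivator that drives class I genes, was the only regulator called between macrophages on this scale, and 1 of 2 called for CCR2+ Mac against MHC-IIlo Mac under quantile normalization and of 3 with the slide as a block. It averaged 0.85 ± 0.14 in CCR2+ Mac, 0.19 ± 0.23 in MHC-IIHi Mac and -0.07 ± 0.35 in MHC-IIlo Mac, against 0.76 ± 0.22 in Ly6cHi Mono (SD, n = 4 each). The CCR2+ Mac arrays lay above all MHC-IIlo Mac arrays, with a difference of 0.92 ± 0.20 (SE; limma, adjusted p = 0.0189, higher on 4 of 4 slides). That call was lost with median scaling (0.95, adjusted p = 0.123). The difference between CCR2+ Mac and MHC-IIHi Mac, 0.66, was not called (adjusted p = 0.171; with the slide as a block, adjusted p = 0.0607), where the block called 1 other regulator, Stat2 (0.57, adjusted p = 0.0397). Over the same comparison of CCR2+ Mac with MHC-IIlo Mac, none of the 10 members was called. H2-K1 lay at -0.06, H2-D1 at -0.41, B2m at -0.24 and Tapbp at -0.03. Tap1 lay at 0.38, Tap2 at 0.28, Psmb8 at 0.41, Psmb9 at 0.19, Psmb10 at 0.16 and Calr at 0.20.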

How the data were processed

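The authors scanned the arrays and deposited 1 text file per array, made with Agilent Feature Extraction 11.5.1.1 per the submitters' processing notes; per the file headers, the deposited values are intensity per spot, and the processed signal is background-subtracted within the array with no scaling between arrays. Partek is named without a version or a step. The series' value table was not used here, and sample labels were those of the scanner files. From these files, control spots and spots marked as outliers were left out, 110 of 39429 probes were dropped, spots of a probe were averaged, log2 was taken and each array's 75th percentile subtracted. Kept were the 27643 probes that 4 or more arrays detected well above background, and the brightest kept probe stood for a gene. Symbols came from RefSeq. The text column headings were shifted against their contents in most files, so the columns were found by content.

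The tests used limma 3.58.1 under R 4.3.3 (lmFit and eBayes, 1 mean per group, 16 arrays, no block, Benjamini-Hochberg over 21980 features), checked on simulated data. The number of arrays limits the precision. Alternatives were the slide as a block, quantile normalization, median scaling, normexp background (offset 50), the filter, the probe rule, fits of 2 groups and leaving out each array. Quantile normalization with the block was added after seeing the data. The labels state no pairing, but arrays of the same replicate number, which share a slide, tended to move together. Deviations from group means correlated at 0.138 to 0.638 in all 24 same-number pairs. Other pairs ran from -0.535 to 0.492, so the ranges overlap. Of 16 arrays, 13 matched best an array of their own number. The main fit did not use this likeness, and the fit with the slide as a block did. Named were all members with all their probes, up to 4 called genes with the largest difference per list and comparison, and the gene most alike to each member. The members, lists and rule were chosen with earlier results of these data known, so no count over a list is independent evidence. Some items searched or tested are not reported here.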

Additional observations from a re-analysis of the deposited data

Results flagged for a closer look

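In 7 of the 40 sets of 4 arrays (10 genes in 4 groups), the extreme array lay further from its neighbour than Dixon's 95% critical value allows, where chance flags about 1 in 20 sets. On MHC-IIHi Mac replicate 4, H2-K1 read 5.48, against 5.63 to 5.65 on the other arrays of that group, and H2-D1 read 6.12, against 6.64 to 6.72. Psmb8 read 4.08 on MHC-IIHi Mac replicate 1, against 3.24 to 3.28. H2-K1 read 5.85 on CCR2+ Mac replicate 1, against 5.62 to 5.66. B2m read 4.55 on MHC-IIlo Mac replicate 2, against 4.96 to 4.98. In Ly6cHi Mono, Tap2 read 0.14 on replicate 3, against -0.66 to -0.57, and Psmb10 read 3.50 on replicate 4, against 4.08 to 4.19. The sets share arrays and are not independent, and a cause was not tested.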

How the results depend on the processing

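No member was called between macrophages under any alternative run. Between CCR2+ Mac and MHC-IIHi Mac, 275 of 21980 features were called on the main scale. There were 552 with the slide as replicate block, 639 with the block and quantile normalization and 172 with median scaling. With probes detected on all arrays, where fewer features were tested, 170 of 14508 were called. There were 181 with the 2 groups alone and 153 to 218 without 1 array. Between CCR2+ Mac and MHC-IIlo Mac the 611 became 1256, 1349 and 379 under the first 3 of these settings, 335 with the 2 groups alone and 409 to 655 without 1 array. Between MHC-IIHi Mac and MHC-IIlo Mac the 15 became 77, 70 and 4, then 0 with the 2 groups alone (859 at an unadjusted p under 0.05 in the fit of all groups) and 0 to 18 without 1 array. Against monocytes, 4762 features in CCR2+ Mac became 7416 with the block and 3821 to 4431 without 1 array. With no filter, where more features were tested, 8544 of 30274 were called in CCR2+ Mac. In MHC-IIHi Mac 4708 became 3879 to 4487 without 1 array. In MHC-IIlo Mac 4682 became 7076 with the block and 3973 to 4631 without 1 array.

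Of members against monocytes, 2 were called in CCR2+ Mac, but 5 with the replicate block, 1 with median scaling, 1 with the 2 groups alone and 1 to 2 without 1 array. In MHC-IIHi Mac 2 were called, but 5 with the block, 1 with median scaling, 1 without MHC-IIHi Mac replicate 3 and up to 3 without another array. In MHC-IIlo Mac 3 were called, but 6 with the block, 5 with the block and quantile normalization, 1 with median scaling and 1 to 3 without 1 array, 1 without MHC-IIlo Mac replicate 3. The block changed no call of a member beyond those given with each gene, and the cause of the other changes was not tested.

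Signs turned for small differences. With quantile normalization, and equally with the block added, H2-D1 was 0.0032 for CCR2+ Mac over MHC-IIHi Mac, Tapbp 0.0090 and H2-K1 0.15 for CCR2+ Mac over MHC-IIlo Mac, and Calr 0.011 for MHC-IIHi Mac over MHC-IIlo Mac. Over monocytes, in CCR2+ Mac, MHC-IIHi Mac and MHC-IIlo Mac, H2-D1 was 0.052, 0.049 and 0.18 and B2m 0.12, 0.14 and 0.24, and Psmb8 was 0.028 in CCR2+ Mac. H2-K1 for CCR2+ Mac over MHC-IIlo Mac was 0.038 with normexp, 0.046 with the mean of its probes and 0.15 with the dimmer probe. Psmb9 for MHC-IIHi Mac over MHC-IIlo Mac was -0.023 with median scaling and -0.012 with normexp. With normexp, Psmb9 was 0.0037 for CCR2+ Mac over Ly6cHi Mono and H2-D1 0.18 for MHC-IIlo Mac over Ly6cHi Mono, and with median scaling H2-K1 was -0.059 for MHC-IIHi Mac over Ly6cHi Mono. Without 1 array, CCR2+ Mac over MHC-IIHi Mac ran from -0.24 to 0.33 for Tap1, -0.30 to 0.13 for Tap2 and -0.29 to 0.077 for Tapbp. CCR2+ Mac over MHC-IIlo Mac ran from -0.12 to 0.011 for H2-K1 and -0.20 to 0.12 for Tapbp. MHC-IIHi Mac over MHC-IIlo Mac ran from -0.11 to 0.24 for Tapbp, -0.11 to 0.10 for Psmb9 and -0.11 to 0.12 for Calr. Over monocytes, Tap2 in MHC-IIHi Mac ran from -0.29 to 0.048 and H2-D1 in MHC-IIlo Mac from -0.093 to 0.084. In all, 27 of 480 member differences turned sign without 1 array, and 30 of 606 under the other settings. Many of the 606 could not turn sign, since the block and the fits of 2 groups leave a difference of group means unchanged. The 606 also include each brightest probe on its own, so the 30 are not a measure of how stable the signs are.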
